A study of Drosophila melanogaster with 4 samples.

Results

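Transcription start sites (TSSs) of Drosophila melanogaster embryos that lay inside protein-coding sequence (CDS) were examined. A TSS was included when it was more than 200 bp from every annotated transcript start on its own strand and fell on a CDS base of a gene on that strand in the Ensembl 115 annotation of the dm6 assembly. Of the 46925 TSSs in the deposited deduplicated list, 5500 met this rule, and they lay in 3561 of the 13968 genes with CDS (25.5%). The position rule used no coverage, but the list did: deduplication retained only the most covered TSS of each chain of overlapping windows of 200 bp on each side. A TSS near a used start therefore stayed in the list only if it was the stronger of the pair. In the full list before deduplication, 12046 TSSs met the same position rule. That list counts each position of a chain separately, so its counts and densities are of positions, not of separate sites.

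The embryos were of the wild-type Canton S strain, were collected over 0 to 12 h of development from population cages kept at 25 °C, and carried no mutation or treatment according to the labels. Capped small RNA-seq (csRNA-seq) was made as 3 libraries, with 1 input library of small RNA set aside before cap enrichment. The labels name embryonic cells without a type, so cell types and ages within the 12 h interval are mixed. Starts of zygotic patterning genes were present, from 127 at ftz to 5304 at Kr in reads per 10000000, whereas ninaE, Yp1, Yp2, Lsp1beta, Sgs3 and SP, which mark later stages or adult tissues, had no TSS at a start. Lsp2 and Yp3 had low starts of 4.91 and 10.1.

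RNA polymerase II normally begins transcription at a promoter just upstream of the 5′ untranslated region, and the new RNA soon receives a cap at its first base. csRNA-seq enriches short capped RNAs, and the base where a read begins is taken as the base where its RNA began. A start inside the CDS would give an RNA that lacks the original start codon, and such internal promoters are known to make shorter proteins from some genes, while many weaker capped 5′ ends inside exons have no assigned role.

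The deposited value of a TSS, its coverage, is a number of reads scaled to a library of 10000000. Every value was a whole number of reads of 1 of 3 libraries, of 5931389, 7299457 and 4070746 reads, in which 1 read is worth 1.69, 1.37 and 2.46. How the library was chosen at each TSS is not given in the sources used here, so the total of reads over the 3 libraries is unknown and every read count below is that of 1 library. With 1 value per TSS there was no spread between replicates, and all intervals given here are 95% intervals that cover counting error only. No TSS inside CDS or near an annotated start had a value below 3.37. With 1 read worth 1.37, TSSs of 2 reads therefore never came from the library of 7299457 reads, only from the other libraries. Of the TSSs inside CDS, 17.8% took their value from the library of 7299457 reads, against 27.5% of those near annotated starts. The part of library choice in the results below was not tested except where values are given by library.

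TSSs inside CDS were numerous and mostly weak. Their coverage ran from 3.37 to 2072 with a median of 4.91, and 84.6% of them rested on 3 reads or fewer. Only 347 (6.31%, 5.70% to 6.98%) had a coverage of at least 10, with 53 at 50 or more and 28 at 100 or more. Added up, the coverage of the 5500 TSSs came to 0.634% of that of all TSSs left after deduplication. TSSs within 200 bp of an annotated start were far stronger, with a median of 42.2 over 11772 TSSs and 79.1% at 10 or more. A smaller share of TSSs inside CDS reached 10 than of other sites away from starts, where it was 15.6% over 7697 TSSs in introns and 13.2% over 2719 TSSs antisense to CDS. The difference was -9.31 percentage points from introns (-10.3 to -8.27) and -6.86 points from antisense TSSs (-8.32 to -5.47), larger than counting error in both cases. A share depends on the number of weak TSSs in its class. Per Mb of the same bases, the sense and antisense TSSs of at least 10 left after deduplication did not differ beyond counting error. They had 16.2 and 16.9 per Mb (intervals 14.4 to 18.0 and 15.1 to 18.7).

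To see whether TSSs inside CDS followed the direction of the gene, sense and antisense TSSs were counted on the same 20.1 Mb of CDS bases that have a gene on 1 strand only and lie over 200 bp from starts on both strands. There were 5215 sense and 2569 antisense TSSs, or 259 (252 to 266) and 128 (123 to 133) per Mb, and 67.0% of the TSSs were sense (65.9% to 68.0%). The excess was carried by TSSs with few reads. At 2 reads, 3078 TSSs were sense and 1226 antisense (71.5% sense), and at 3 reads 1336 and 612 (68.6%). At 6 to 9 reads the strands were nearly even, with 180 sense and 205 antisense TSSs (46.8% sense, 41.8% to 51.7%), and at 20 reads or more 78 were sense and 57 antisense (57.8%, 49.3% to 65.8%). At a coverage of at least 10 there were 325 sense TSSs and 339 antisense TSSs (48.9% sense, 45.2% to 52.7%). A sense excess was therefore not detectable among those left after deduplication. Both strands were counted in the deduplicated list, which drops sense TSSs weaker than a used start nearby. TSSs inside CDS of at least 10 numbered 347 in that list and 702 in the full list. Antisense TSSs of the full list were not counted, so the strand share before deduplication is unknown. For TSSs of 2 or 3 reads the sense share was 72.2%, 69.4% and 68.7% in the libraries of 5931389, 7299457 and 4070746 reads.

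**Figure D1:**
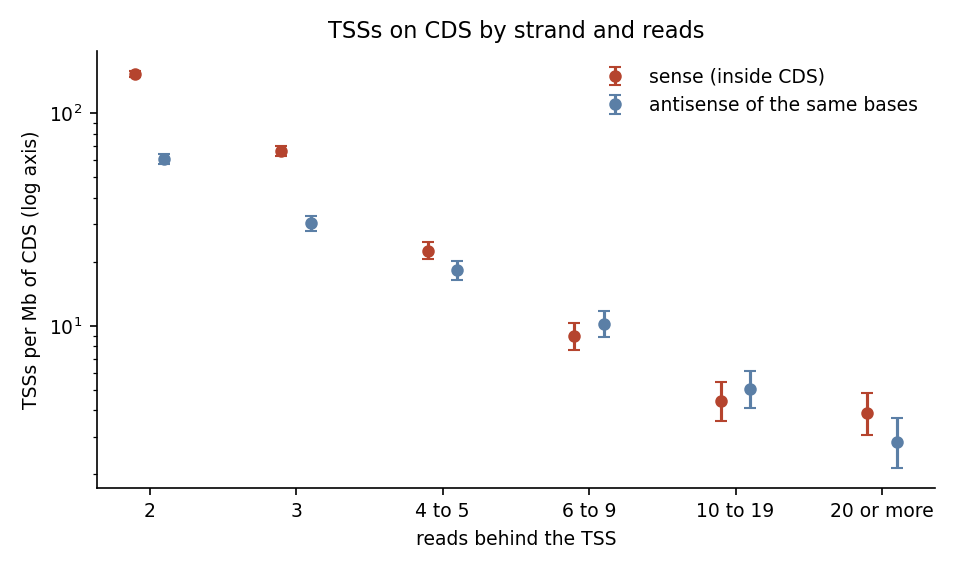
TSSs per Mb of CDS on a log axis against the number of reads behind the TSS, for TSSs sense to the gene (red) and antisense to the same bases (blue); bars are 95% exact Poisson intervals. Sense TSSs lie above antisense TSSs at 2 and 3 reads, at 153 and 60.9 per Mb for 2 reads, and the intervals overlap from 6 reads upward. Both strands are from the deduplicated list.

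Each TSS inside CDS was then set against the start of its own gene, taken as the highest coverage within 200 bp of any annotated start of that gene. Distances from the own start are to the nearest upstream start of the gene, which need not be the one with that coverage. A start value existed for 5179 of the 5500 (94.2%), whereas 70.0% of all genes with CDS had one. By length, the genes without one held 18.6% of the eligible CDS bases and 5.90% of the TSSs. The own start had a median coverage of 138 over these TSSs, against 52.1 over all 9782 genes with CDS and a start value. The TSS inside CDS had a median of 3.27% of the coverage of its own start. It was above the own start in 124 cases (2.39%, 2.01% to 2.85%). Close to a used start deduplication allows no other outcome, and more than 1000 bp from the own start the count was 59 of 4255 (1.39%, 1.08% to 1.78%), a limit chosen after seeing the data.

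Genes with stronger starts held more TSSs inside CDS, but the coverage of these TSSs did not follow the start. Genes without a start value had 80.4 TSSs inside CDS per Mb (71.8 to 89.7). The density was 137 per Mb for own starts under 10, 254 for 10 to 100, 356 for 100 to 1000 and 411 (385 to 440) for 1000 or more. Of the 827 genes in the highest group 52.7% held at least 1 TSS inside CDS, against 7.02% of the 4186 genes without a start value. On bases with a gene on 1 strand only, the sense density was 78.0 per Mb without a start value and 410 at own starts of 1000 or more, while the antisense density in the same genes was 87.0 and 139 per Mb. Between TSSs inside CDS and their own starts, the Spearman rank correlation of coverage was 0.01 over 5179 TSSs, which share genes and rest on few reads in steps set by the library. For the TSSs with a coverage of at least 10 the density rose less, with 12.9 per Mb (9.57 to 16.9) in genes without a start value, 19.8 and 13.6 in the next groups, 17.0 for 100 to 1000, and 23.6 (17.5 to 31.1) at 1000 or more. In that subset the rank correlation was -0.11 over 295 TSSs, and 78 of them (26.4%, 21.7% to 31.8%) were above their own start. More than 1000 bp from the own start it was 38 of 215 (17.7%, 13.2% to 23.3%). Choosing TSSs for high coverage itself raises this share.

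**Figure D2:**
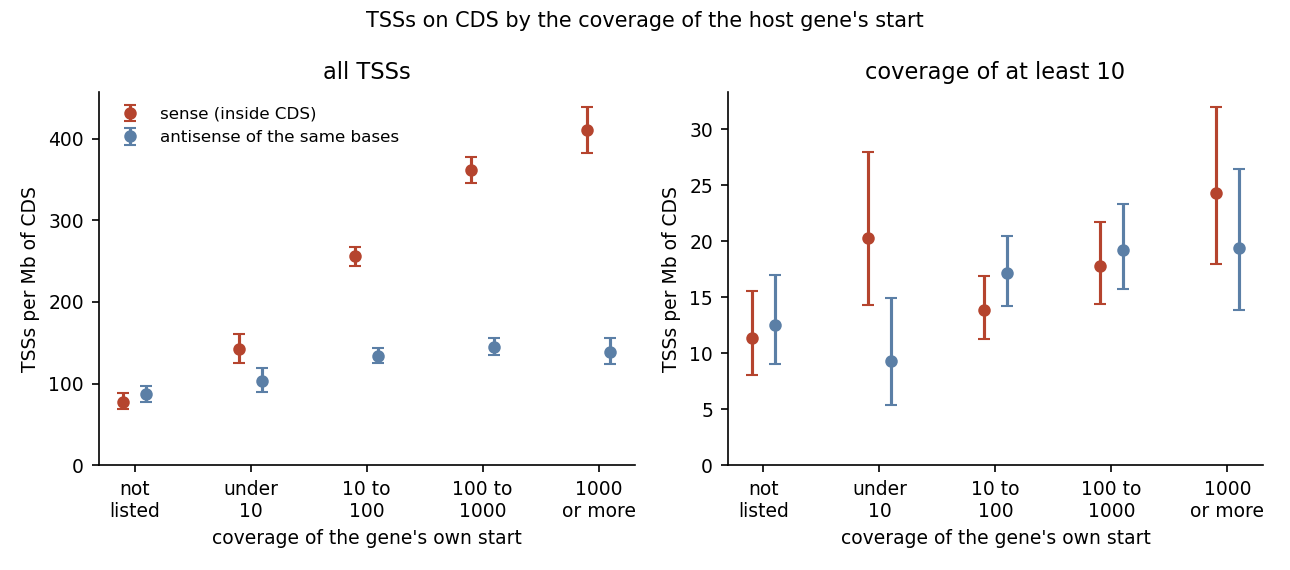
TSSs per Mb of CDS in genes grouped by the coverage of their own start, in reads per 10000000, for TSSs sense to the gene (red) and antisense to the same bases (blue), with 95% exact Poisson intervals; all TSSs are on the left and those with a coverage of at least 10 on the right. Among all TSSs the sense density reaches 410 per Mb at own starts of 1000 or more while the antisense density stays at 145 or lower. On the right the intervals of the strands overlap in each of the 5 groups, which does not show that the strands are equal. They are widest apart at own starts under 10, with 20.3 sense and 9.31 antisense per Mb (37 and 17 TSSs). Sense is also higher at 1000 or more, and antisense is higher in the other groups. Both strands are from the deduplicated list.

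**Figure D3:**
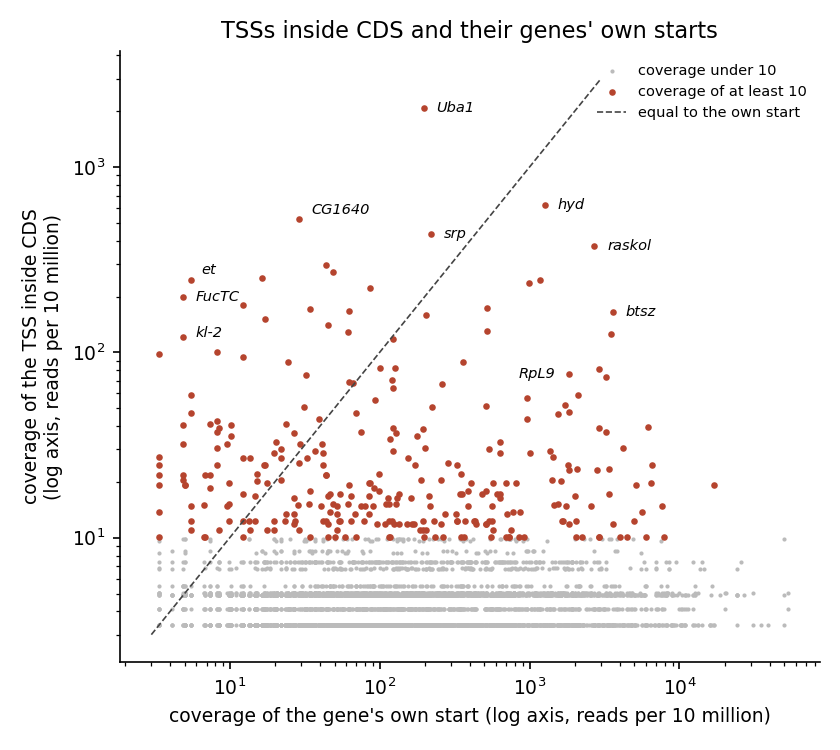
Coverage of each of the 5179 TSSs inside CDS against the coverage of its gene's own start, both in reads per 10000000 on log axes, with TSSs of at least 10 in red and weaker ones in grey; the dashed line marks equal coverage. Most points form rows of few reads at the bottom, 124 lie above the line, and the named genes include Uba1, CG1640, srp, et, FucTC and kl-2 above it and hyd, raskol, btsz and RpL9 below it.

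Along the gene, where the TSSs inside CDS lay depended on the list, except for the stronger ones, which were densest near the beginning of the reading frame in both. Positions were taken in the transcript with the longest CDS of each gene, which held 5403 of the TSSs and 340 of those with a coverage of at least 10. When the CDS was divided into 5 segments of equal length, the first to the fifth held 16.5%, 19.4%, 21.4%, 21.1% and 21.6% of the TSSs, against 16.9%, 20.5%, 20.9%, 20.9% and 20.8% of the eligible CDS bases. In the full list the first segment held 27.7% (26.9% to 28.5%) and each later one between 16.9% and 19.4%, so the even spread belongs to the deduplicated list. Full-list values count neighbouring positions of a chain separately. Their intervals treat these positions as independent and may therefore be too narrow. How much of the full-list pattern comes from the number of positions per chain was not tested. TSSs with a coverage of at least 10 had 29.4% (24.8% to 34.5%) in the first segment of the deduplicated list and 36.5% (33.0% to 40.2%) in that of the full list. Their density in the deduplicated list was 27.8 per Mb (22.6 to 33.8) in the first segment and 11.2 (8.30 to 14.8) in the second, and in the full list 69.8 (61.5 to 79.0) and 27.2 (22.6 to 32.6).

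By exon, 9.64% of the TSSs inside CDS lay in the first coding exon, which has 12.0% of the bases, 59.7% in internal coding exons with 53.0% of the bases, 23.4% in the last coding exon with 24.6%, and 7.27% in genes whose CDS is a single exon with 10.5%. The density was 204 per Mb (187 to 223) in first coding exons and 285 (276 to 295) in internal ones. The full list gave the opposite order, with 831 per Mb (796 to 868) in first and 521 (508 to 534) in internal coding exons. Full-list densities count neighbouring positions separately here too, so their intervals may be too narrow. For TSSs with a coverage of at least 10 the density was 22.0 per Mb (16.6 to 28.5) in first and 15.0 (12.8 to 17.4) in internal coding exons, and in the full list 68.2 (58.5 to 79.2) and 26.0 (23.1 to 29.1). Over the 3′-most 10 bases of exons that precede an intron, the density in the deduplicated list was 173 per Mb (134 to 221), lower than the 273 (263 to 284) at bases 100 or more from that edge. No such dip was measured at the 5′ edge after an intron, where the density in the outermost 10 bases was 294 per Mb (243 to 353).

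By distance, TSSs inside CDS in the deduplicated list had 76.6 per Mb at 201 to 300 bp from the nearest upstream start of the gene, 95.6 at 301 to 500 bp, 239 at 501 to 1000 bp and 274 beyond 5000 bp. Deduplication removes the weaker sites near a used start by construction. The full list, which contains them, ran the other way, with 1418, 795, 585 and 402 TSSs inside CDS per Mb at the same distances. It counts each position of a chain separately, and the part of this in the gradient was not tested. For TSSs of at least 10 the deduplicated densities were between 14.2 and 21.4 per Mb over these distances, while the full list had 118 per Mb at 201 to 300 bp, 62.9 at 301 to 500 bp, 34.5 at 501 to 1000 bp and 22.5 beyond 5000 bp.

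TSSs inside CDS were unevenly placed within codons. The first base of a codon held 37.7% of them (36.5% to 39.0%), the second 31.4% and the third 30.9%, although each holds 33.3% of the eligible bases. For 2569 antisense TSSs, counted in the frame of the gene they oppose, the first base held 28.8% (27.1% to 30.6%), the second 34.6% and the third 36.6%. The first-base share was thus 8.92 percentage points higher in TSSs inside CDS than in antisense ones (6.73 to 11.1). It was 37.4%, 40.2% and 36.9% in the libraries of 5931389, 7299457 and 4070746 reads. In TSSs of at least 10 reads it was 39.0% (32.1% to 46.3%), and at a coverage of at least 10 it was 35.7% (30.9% to 40.9%), which includes 33.3%. This comparison was added after the data were seen.

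**Figure D4:**
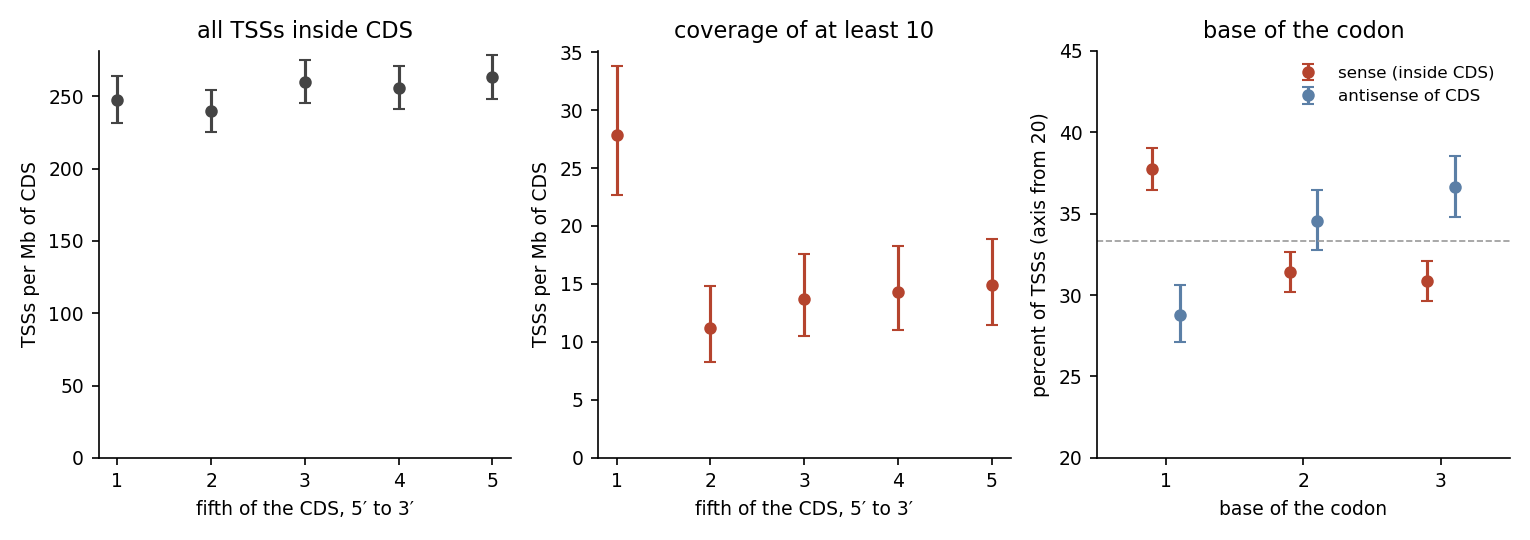
For the deduplicated list, TSSs inside CDS per Mb in 5 equal segments of the CDS from 5′ to 3′, for all TSSs (left, grey) and for those with a coverage of at least 10 (middle, red), and the percentage of TSSs on each base of the codon (right, with an axis that starts at 20) for TSSs inside CDS (red) and antisense to CDS (blue); bars are 95% intervals and the dashed line is the share of an even spread. The middle panel is highest in the first segment at 27.8 per Mb, and on the right the first base holds 37.7% of TSSs inside CDS and 28.8% of antisense TSSs.

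The strongest TSSs inside CDS, which are possible internal promoters, are described next, with no count by function. The 28 with a coverage of at least 100 lay in 28 genes, and 17 of them were above their own start, 10 below it and 1 in a gene without a start value. Part of that tally is set by deduplication, and of the 15 that were more than 1000 bp from the own start 6 were above it. They were mostly early in the frame, with 22 before the midpoint of the CDS and a median position at codon 141. For 8 of the 28 an annotated start on the same strand lay no more than 500 bp upstream, for 3 an annotated start on the other strand lay within 500 bp, and 25 were coding in every isoform that spans them. At such short distances an unannotated transcript start and an internal promoter cannot be told apart from position.

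The highest was in Uba1 (FBgn0023143), which encodes the ubiquitin-activating enzyme, the first enzyme of the ubiquitin pathway. It lay on chromosome 2R at 9692686 (minus strand), in a gene annotated from 9688289 to 9693328. Its coverage was 2072 from 1229 reads, 10.5 times the 196.5 of the gene's own start 642 bp upstream. It fell on codon 119 of 1191 in the first of 4 coding exons, and in the other of the 2 isoforms this base is in an exon outside the CDS. The TSS was not isolated: 17 positions within 50 bp had coverage, and the top position held 82.2% of their sum.

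The second was in hyd (FBgn0002431), which encodes a HECT-type ubiquitin ligase. Here the site lay deep in the gene, at position 9719025 on the minus strand of 3R, on codon 1718 of 2887 in coding exon 10 of 19 and 6590 bp from the nearest same-strand start. Its coverage was 623.8 from 370 reads, against 1259 at the own start (49.5%). Initiation was spread over 14 positions within 50 bp, and the top one held 32.7% of the sum.

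Several of the 20 highest lay at the very beginning of the frame. In raskol (FBgn0261570), a Ras GTPase-activating protein, the TSS was at codon 17 of 1589 on the plus strand of X (17711089). Its coverage was 374.0, against 2711 at the highest of the gene's starts, and the nearest start upstream was 945 bp away. In Sec63 (FBgn0035771), a chaperone partner of the endoplasmic reticulum translocon, it was at codon 7 of 753 on the plus strand of 3L (7360927) with 272.7, against 48.9 at the own start. Dlc90F (FBgn0024432), a light chain of the motor dynein, had its TSS at codon 9 of 111, at position 18299447 on the plus strand of 3R and 218 bp from the start. The coverage there was 221.1, against 86.0 at the own start. In Sec63 and Dlc90F, where the start is 366 and 218 bp away, deduplication would have removed a TSS inside CDS weaker than the start.

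Genes that act in transcription or chromatin included srp, Jarid2, Hcf and Elba2. In srp (FBgn0003507), a GATA factor needed for blood, fat body and endoderm, the TSS at 15994609 on the plus strand of 3R had a coverage of 432.4 from 176 reads, against 221.1 at the own start. It was at codon 128 of 1264 and coding in 2 of the 6 isoforms that span it, with an intron of the other 4 there. Jarid2 (FBgn0036004), a partner of Polycomb repressive complex 2, had its TSS at 9484781 on the plus strand of 3L near the end of its frame, at codon 2124 of 2351 and 7743 bp from its start. That TSS had a coverage of 174.4, all at a single base, against 522.6 at the own start. Hcf (FBgn0039904), a chromatin co-regulator, had 158.9 at 362426 on the plus strand of chromosome 4, against 204.1 at its start. Elba2 (FBgn0031435), a subunit of an embryonic insulator-binding complex, had 170.3 at codon 26 of 381 (2L, 2577940, plus strand), against 34.4 at its start 253 bp upstream.

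The hosts also included et, RhoGEF3, btsz, FucTC, Pcd and amn. In et (FBgn0031055), a receptor-like gene of the JAK/STAT pathway, the TSS at 19673376 on the minus strand of X had a coverage of 245.7 from 100 reads on 1 base, against 5.48 at the own start 2515 bp away. RhoGEF3 (FBgn0264707) had 245.2 at codon 1309 of 3519 (3L, 282609, plus strand), against 1166 at its start. In btsz (FBgn0266756), a synaptotagmin-like protein of epithelia, the TSS at 14820025 on the minus strand of 3R had 164.4, against 3620 at its start. These 3 sites were over 1000 bp from any annotated start on the strand. FucTC (FBgn0044872), a fucosyltransferase gene, had 146 reads at codon 22 of 424 (X, 23010670, minus strand), a coverage 40.7 times the 4.91 at its start. Pcd (FBgn0024841), which encodes pterin-4a-carbinolamine dehydratase, had 179.3 at codon 48 of 192 (3R, 29723453, plus strand), against 12.3 at its start 290 bp upstream. In amn (FBgn0086782), a neuropeptide gene named for its memory phenotype, the TSS at 19887248 on the minus strand of X had 221.9 and the gene had no start value. The base is also covered by a gene on the other strand, and a start on that strand lay 105 bp away.

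The others among the 20 were in genes known by annotation numbers. They were CG1640 (526.1 inside CDS and 28.8 at the start), CG3408 (297.3 and 43.8), CG18048 (252.1 and 16.4), CG42327 (236.0 and 994.6) and CG11050 (167.1 and 62.4). The site in CG1640 (X, 13374081, plus strand) was coding in all 7 isoforms and 322 bp downstream of the nearest start, and it was the third highest of all TSSs inside CDS, with 384 reads.

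**Figure D5:**
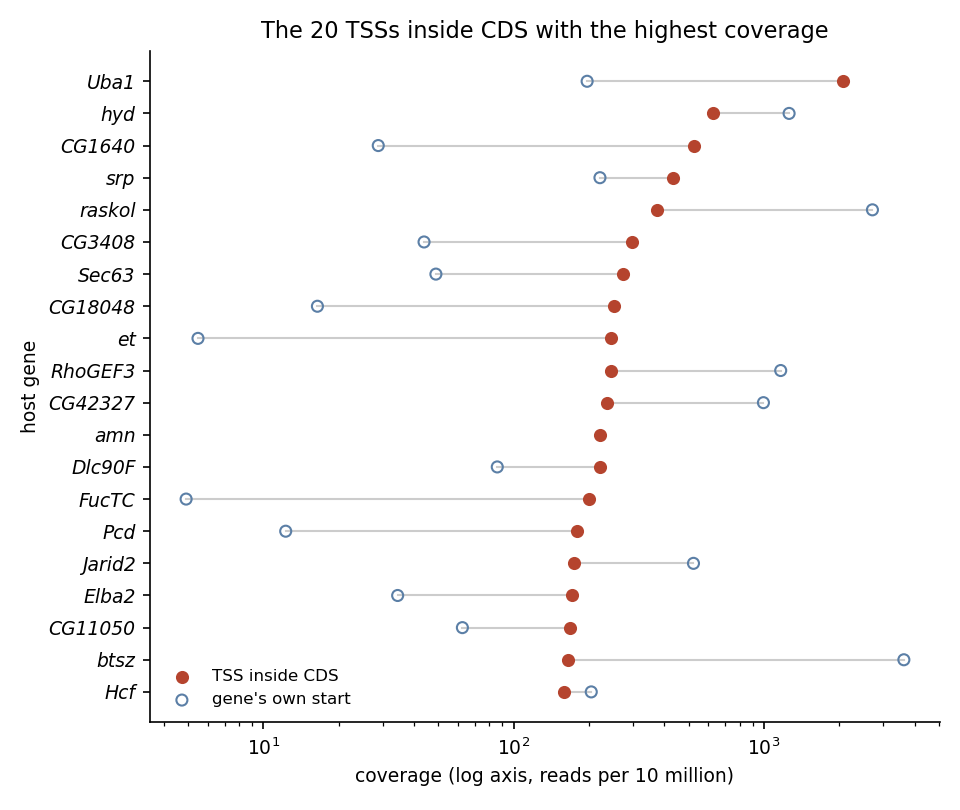
Coverage in reads per 10000000 on a log axis for the 20 highest TSSs inside CDS (filled red) and for the start of the same gene (open blue), with a grey line joining the values of a gene; genes run from the highest TSS at the top downward. The filled point is right of the open one in Uba1, CG1640, srp, CG3408, Sec63, CG18048, et, Dlc90F, FucTC, Pcd, Elba2 and CG11050, and amn has no start value.

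The highest TSSs in last coding exons were those of et, CG1703, clos, RpL9 and EDTP. In RpL9 (FBgn0015756), a protein of the large ribosomal subunit, the TSS at 11002959 on the minus strand of 2L had a coverage of 76.7 from 56 reads at codon 174 of 190, against 1834 at the own start. EDTP (FBgn0027506), a phosphatase gene, had 71.2 at codon 743 of 754 on the minus strand of 2R (17432609), against 121.4 at its start. CG1703 (FBgn0030321) had 139.9 on the plus strand of X (11613886), against 45.5 at its start. These 3 TSSs differed in their neighbourhood, since 8 and 6 positions within 50 bp had coverage in RpL9 and CG1703 and 1 in EDTP. clos (FBgn0261016), which encodes an eggshell protein, had 97.8 at codon 1762 of 1836 on the minus strand of 2R (9588232), against 3.37 at its start.

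Relative to the own start, and among TSSs of at least 10, the largest excess was in et (44.8 times), followed by FucTC (40.7), clos (29), kl-2 (24.5) and CG1640 (18.3). These ratios rest on own starts of a few reads, except in CG1640, and were chosen for their size, and CG1640 is close enough to a start for deduplication to bear on it. In kl-2 (FBgn0001313), a Y-linked dynein heavy chain gene of the sperm tail, the TSS at 638450 on the plus strand of Y had a coverage of 120.6 from 88 reads on a single base, 65362 bp from the start.

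Initiation around TSSs inside CDS was more often confined to a single position than around those near starts. Between a coverage of 10 and 50, 46.9% of TSSs inside CDS had no other position with coverage within 50 bp on the strand. The share was 9.78% near starts, 41.8% in introns and 45.3% antisense to CDS. The difference was 37.2 percentage points from starts (31.5 to 42.9), 5.19 from introns (-1.20 to 11.6) and 1.66 from antisense TSSs (-6.21 to 9.50). Since more reads show more positions, classes were compared at like coverage. Between 50 and 100, 5 of 25 TSSs inside CDS were alone, against 26 of 1515 near starts, a difference of 18.3 points (7.12 to 37.4), and the median number of positions was 4 and 11. In introns 25.0% were alone there and antisense to CDS 43.5%, with differences of -5.00 points (-20.1 to 15.8) and -23.5 points (-46.1 to 2.68). A TSS on the other strand within 500 bp upstream, the arrangement of divergent promoters, was present for 18.7% of TSSs inside CDS between 10 and 50, against 45.2% near starts and 28.5% in introns. The difference from introns was -9.80 points (-14.7 to -4.26). Antisense to CDS the share was 31.45%, a difference of -12.7 points (-19.4 to -5.875). Between 50 and 100 it was present for 7 of 25 (14.3% to 47.6%), against 50.4% near starts, a difference of -22.4 points (-36.4 to -2.69). At 50 or more, where the classes differ in coverage, it was present for 37.7% of TSSs inside CDS. The share was 48.7% near starts and 33.1% in introns. Those differences were -10.9 points (-22.8 to 2.59) and 4.61 points (-9.43 to 19.7), neither larger than counting error. Of these 53 TSSs inside CDS, 12 had an annotated start on the same strand within 500 bp upstream. For them an opposite-strand TSS that pairs with that start cannot be told apart.

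Most host genes had few TSSs inside CDS: 2438 genes had 1, 710 had 2 and 413 had 3 or more. The genes with the most encode large proteins, with a CDS of 7185 bases in pyd to 26799 bases in bt. spen (FBgn0016977), a nuclear RNA-binding regulator, had 14, with none above 7.37 and an own start of 1909. poe (FBgn0011230), a large calmodulin-binding protein, had 12 with a highest coverage of 10.1, and mask (FBgn0043884), an ankyrin-repeat protein, had 12 with a highest coverage of 5.06. The cadherin kug (FBgn0261574), the junction protein pyd (FBgn0262614) and the muscle protein bt (FBgn0005666) had 11 each, with none above 7.37. None of the sites in spen, mask, kug, pyd and bt therefore reached 10, and the genes with the strongest TSSs inside CDS were others.

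Gene groups were described by their counts beside the 258 TSSs per Mb and 347 of 5500 at 10 or more over all genes with CDS. These densities divide all TSSs inside CDS by the eligible bases of the transcripts with the longest CDS. Over the eligible bases of any isoform the density was 252.8 per Mb. Basement membrane genes, which encode collagen IV, laminins, nidogen, perlecan and SPARC, held 26 TSSs in 6 of 8 genes, or 510 per Mb (333 to 748). LanA alone held 10 of them. The median own start of the group was 581, and all genes with own starts of 100 to 1000 had 356 per Mb, inside that interval. Of the 26 TSSs, 3 reached 10, in trol (88.4), LanB2 (59.0) and Col4a1 (12.3), which encode perlecan, a laminin chain and a collagen IV chain. Tubulins held 8 TSSs in 6 of 9 genes, or 657 per Mb (284 to 1294), with alphaTub84B the highest at 19.7. Their median own start was 545, and the 356 per Mb of all genes with own starts of 100 to 1000 is inside that interval too. Ribosomal protein genes held 14 in 14 of 93 genes, 357 per Mb (195 to 599), and the 4 that reached 10 were in RpL9, RpL6 (23.6), RpS15Aa (15.1) and RpS23 (10.1). In these 4 genes the TSS inside CDS had between 0.351% and 4.18% of the coverage of the own start.

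Among developmental regulators, Hox genes held 3 TSSs inside CDS in 3 of 8 genes, or 228 per Mb (47.1 to 668), and gap and pair-rule genes held 7 in 6 of 14 genes, or 360 per Mb (145 to 742). None of these 10 was above 5.48, and both intervals include the 258 of all genes. Heat shock genes held 13 in 10 of 25 genes, or 333 per Mb (178 to 570), with Hsc70-4 and Hsp60A highest at 12.3 each. Actins held 3 in 3 of 6 genes, or 464 per Mb (95.7 to 1357), with Act5C highest at 20.2. The giant muscle proteins Mhc, Msp300, bt and sls held 29, or 227 per Mb (152 to 326), with sls highest at 32.9. The 115 histone genes, picked by symbol without separating replicative copies from variants, held none (upper limit 105 per Mb). Only 5 of the 115 had a start value, against 70.0% of all genes with CDS. A lack of TSSs inside CDS can therefore not be told apart from a lack of measurement at these genes.

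By chromosome, the density ran from 250 per Mb on 3L to 266 on 2R for the large arms and X. It was 398 (324 to 485) on chromosome 4 with 99 TSSs, and 79.8 (25.9 to 186) on Y with 5.

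At the 200 bp limit, the TSSs with a coverage of at least 10 just inside the rule were in CG3552 at 203 bp from the nearest start (coverage 12.3), Mad1 at 213 bp (39.3), CG10553 at 217 bp (22.1), Dlc90F at 218 bp (221.1) and CG10286 at 219 bp (20.2). Just outside it were those in CG10376 at 200 bp (12.3), CG12107 at 186 bp (22.1), Cyp1 at 170 bp (801), cav at 163 bp (11.8) and CG32642 at 143 bp (34.3). In all, 262 TSSs inside CDS lay within 200 bp of a start, and they had a median coverage of 10.96.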

How the data were processed

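csRNA-seq (3 libraries) and 1 input library were made from small RNAs of 20 to 60 nt. According to the submitters' processing notes bcl2fastq 2.17, STAR 2.7.9a, HOMER 4.11 and bedtools 2.30.0 were used. The authors aligned trimmed reads to dm6, called TSSs with HOMER, and deposited 1 coverage value (signal) per TSS, scaled to 10000000 reads, for a full list of 232302 TSSs, for windows around them and for a deduplicated list (the most covered TSS of each chain of overlapping windows on a strand). The authors also deposited log2(x + 1) of the deduplicated coverage, which was used only as a copy of the coverage. Values of the input and of each library were not analysed here.

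Reads were recovered by dividing each value by the worth of 1 read (all 232302 values came out whole, within a relative tolerance of 1e-06). TSSs on 7 chromosome arms and chromosomes were placed against Ensembl 115, whose assembly is the same, without 5896 transposable element genes, in Python 3.11.15 (SciPy 1.17.1, pandas 2.3.3, NumPy 2.4.6; plots in matplotlib 3.10.9). Shares have Wilson intervals, densities exact Poisson intervals and differences of shares Newcombe intervals. With 1 value per TSS no test across replicates was possible. Recovery of reads, placement in CDS, codon position and own starts were tested on simulated data.

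Genes were named by a rule: the hosts of the 20 highest TSSs, the 5 highest in first, internal and last coding exons, the 5 genes with the most TSSs (6 with ties), the 5 most above their own start among those of at least 10, those next to the 200 bp limit, and the gene groups. Members, groups and rule were chosen with earlier results of these data known. Alternatives were the distance to a start, minimum reads, the full list, coding in every isoform, genes on the other strand, a coverage minimum, the summed own start, and starts of protein-coding genes only. Of the gene lists, h and Unc-89 had no match by symbol. DNA sequence was not analysed here, so initiator bases and printed sequences are left out.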

Additional observations from a re-analysis of the deposited data

How the results depend on the processing

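Over 81 alternative values, 46 stayed within the limits set for them (1.5 times for a count, 0.1 for the Spearman rank correlation, the counting interval for others) and 35 moved. The number of TSSs inside CDS was 2264 with at least 3 reads, 849 with at least 4 and 12046 in the full list, where 702 reached a coverage of 10. The density per Mb was 252.8 in the main setting. It was 275.5 with a distance of 500 bp, 259.6 without bases under a gene on the other strand, 104.0 and 39.0 with at least 3 and 4 reads, and 553.6 in the full list. The median coverage was 9.59 with at least 4 reads and 17.2 at a coverage of at least 10. The share at 10 or more was 15.3% with at least 3 reads and 40.9% with at least 4. The share in genes with a start value was 93.1% at 100 bp, 95.9% at 500 bp, 92.5% and 88.8% with at least 3 and 4 reads, 96.2% in the full list, 94.98% without a gene on the other strand and 85.0% at a coverage of at least 10. The rank correlation with the own start was -0.094 with at least 4 reads and -0.11 at a coverage of at least 10. The share above the own start was 1.80% at 500 bp, 5.54% and 13.4% with at least 3 and 4 reads, 1.67% in the full list, 26.4% at a coverage of at least 10 1.35% against the summed own start and 1.39% more than 1000 bp from the own start. The share in the first coding exon was 8.997% at 500 bp, 11.4% and 13.0% with at least 3 and 4 reads, 18.3% in the full list and 17.0% at a coverage of at least 10. The first codon base held 35.7% at a coverage of at least 10. A read or coverage minimum removes weak TSSs by construction. The full list restores all TSSs that deduplication removes, both near used starts and around other kept TSSs, and counts each position separately. Beyond 5000 bp from the nearest upstream start of the gene it had 402 TSSs inside CDS per Mb, against 274 in the deduplicated list. Other causes were not tested. The codon share, its alternatives and the 1000 bp limit were chosen after seeing the data.

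No paired analysis was possible because each TSS has 1 value that cannot be assigned to a replicate number, and for the same reason the libraries were not left out in turn. The share of TSSs that start on a purine after a pyrimidine, and its alternatives, were not run. Depth limits the weak TSSs most, since 58.8% of those inside CDS rest on 2 reads, and PCR duplicates are not told apart.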
